A study of Homo sapiens with 6 samples.

Results

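Cathepsins are the proteases of the lysosome, and 10 of their genes were followed here in human retinal pigment epithelium cells with and without POLDIP2. The genes were chosen by name: CTSS, together with CTSA, CTSB, CTSC, CTSD, CTSF, CTSH, CTSK, CTSL and CTSZ, which are 10 of the 37902 genes in the deposited table. CTSS was selected on its values in these libraries, since it lay near 0 in WT, and its difference between the lines is therefore given as a description, with no p value, as are those of the other 9. Where these genes are counted against the thresholds of the comparison, the count describes them and supports nothing. ARPE-19, an established human line, arose from retinal pigment epithelium (RPE), and its parental form is called WT. The POLDIP2 KO line was made from it by lentiviral delivery of SpCas9 and an sgRNA against the POLDIP2 coding sequence with puromycin selection. Both lines were kept in regular medium, and polyadenylated RNA of 3 biological replicates per line at day 3 was sequenced as stranded single-end libraries. The knockout is represented by 1 line, so the loss of POLDIP2 and other differences of that line from its parent cannot be told apart.

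Lysosomal cathepsins fall into classes by the residue that cuts the substrate. CTSD is an aspartic protease, CTSA is a serine carboxypeptidase that also stabilises lysosomal glycosidases, and the rest of the 10 are papain-like cysteine proteases. They are made as inactive precursors, carried to the lysosome mainly by mannose 6-phosphate receptors, and activated in its acid lumen. In RPE cells they degrade the outer segments shed by photoreceptors, with CTSD as the best known of them. CTSS is best known from antigen-presenting cells, where it trims the invariant chain from MHC class II molecules, and unlike most of its relatives it stays active at neutral pH.

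The libraries held 31532797 to 45795509 recovered reads. The normalised count of POLDIP2 in replicates 1 to 3 was 3919, 4827 and 4798 for WT, against 1063, 1248 and 1143 for POLDIP2 KO, so the mean of the knockout line was 0.255 of the WT mean. The RPE genes KRT8, KRT18, OTX2 and MITF were present in all 6 libraries, whereas RPE65, TTR and RGR, genes of the differentiated tissue, were listed at 0 in all of them. An exact 0 in this table is not always an absent transcript: of 76 ribosomal protein genes, RPS9 and RPS18 were listed at 0 in 5 of the 6 libraries, and 9 genes were at 0 in 1 library while holding at least 100 reads in each of the other 5. In bulk RNA, fewer cells that express a gene and less RNA per cell cannot be told apart.

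The papain-like cathepsins are close relatives, and the codon of the catalytic cysteine lies in a short stretch that most of them share in part. The stretches of 30 coding bases around that codon are shown because they hold the catalytic residue. Whether they are the most alike parts of these genes was not tested. They were read from the MANE Select transcripts of GENCODE release 44 (GRCh38), 5′ to 3′ on the coding strand, with the cysteine codon in capitals. CTSS lies at chr1:150751979-150752008 on the minus strand in exon 5 of 8, CTSK at chr1:150804210-150804239 on the minus strand in exon 5 of 8, CTSL at chr9:87728585-87728614 on the plus strand in exon 5 of 8, CTSH at chr15:78932429-78932458 on the minus strand in exon 6 of 12, CTSF at chr11:66565898-66565927 on the minus strand in exon 7 of 13, and CTSZ at chr20:59006341-59006370 on the minus strand in exon 2 of 6.
CTSS: ggttcttgtggtgctTGCtgggctttcagt
CTSK: ggtcagtgtggttccTGTtgggcttttagc
CTSL: ggtcagtgtggttctTGTtgggcttttagt
CTSH: ggtgcctgcggcagtTGCtggactttctcc
CTSF: ggcatgtgtggctccTGCtgggccttctca
CTSZ: caatactgcggctccTGCtgggcccacgcc
In this stretch CTSS differed from its closest match among those shown, CTSL, at 6 of the 30 bases, from CTSK at 8, from CTSH at 10, from CTSF at 11 and from CTSZ at 15. Of the 963 distinct 31-base words in the CTSS coding sequence, 0 occurred in any annotated transcript of another gene. Outside the coding sequence, words shared with other genes brought the share for all CTSS transcripts to 10.8% of 7174. Of these words, 62 were shared with other cathepsins, 18 of them with CTSZ. For CTSL, 31 of 6789 words were shared with CTSV, its closest relative.

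CTSS (ENSG00000163131, chr1:150730079-150765957 on the minus strand, GRCh38) was listed at 0 in WT replicates 1, 2 and 3. In the POLDIP2 KO line its normalised count was 44.3, 28.5 and 30.8 in replicates 1, 2 and 3. The lines did not overlap, and the 3 POLDIP2 KO libraries lay close to each other. These values rest on 36, 35 and 31 reads, with exact 95% Poisson intervals of 25.2 to 49.8, 24.4 to 48.7 and 21.1 to 44.0 reads, which cover counting error only. In all, 102 of 115621595 reads in the POLDIP2 KO libraries and 0 of 111690226 reads in the WT libraries were assigned to the gene. The level in the knockout line was thus 0.764 to 1.14 CPM (counts in a library scaled to 1000000 recovered reads), and the limit that 0 reads leave in WT, taken as 3 reads per library, was 0.0756 to 0.0845 CPM.

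Set against that limit, CTSS was at least 11.5-fold higher in the POLDIP2 KO line (log2 3.53), from a knockout mean of 34.5 ± 8.54 (SD, n = 3) and a WT limit of 2.99 normalised counts. This bound takes the WT zeros at face value, and the zeros of RPS9 and RPS18 show that the table does not always allow that. The fitted log2 fold change was 5.12 (SE 0.62), which depends on the pseudocount of 1 and is no bound. The mean of CTSS over the 6 libraries, 17.3, passed the filter of 10 only through the POLDIP2 KO libraries. In all, 4 of the 21339 genes with any read (0.0187%) were at 0 reads in every WT library and above 3 reads in every POLDIP2 KO library. CTSS was chosen for its WT level, so nothing is read from its place among them. Another of the 4 was ALDH1L2, a mitochondrial folate enzyme, with 36, 12 and 14 reads in POLDIP2 KO. The reverse, 0 reads in every POLDIP2 KO library and above 3 in every WT library, held for 16 genes.

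**Figure D1:**
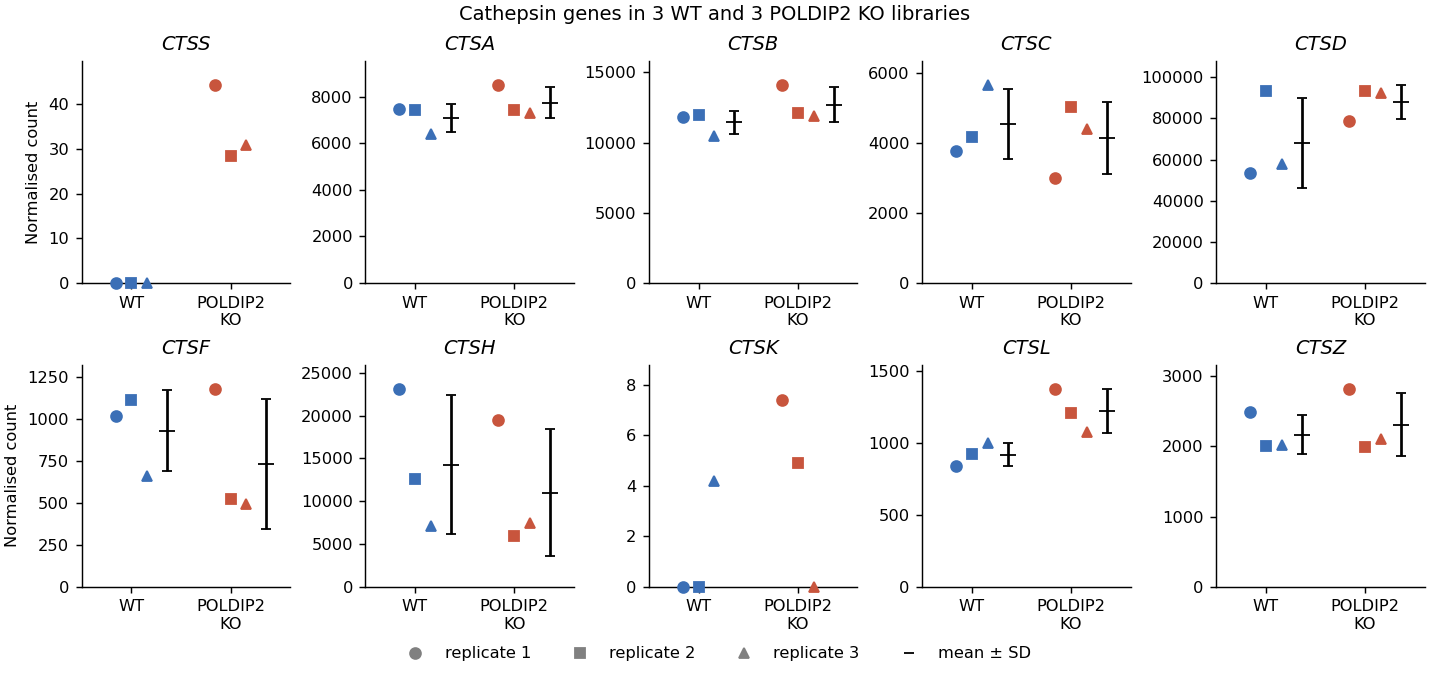
Normalised count (y axis, starting at 0 and scaled for each gene) of the 10 cathepsin genes in WT (blue) and POLDIP2 KO (red), with replicates 1 to 3 as circle, square and triangle and the mean ± SD (n = 3) as a black bar except for CTSS and CTSK. CTSS is at 0 in all WT libraries and at 28.5 to 44.3 in the knockout line, CTSL is the other gene whose lines do not overlap, and in CTSH replicate 1 lies above the other libraries in both lines.

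The other cysteine proteases with endopeptidase activity did not share this pattern. CTSL, which degrades proteins in the lysosome and processes other proteases, was at 836, 920 and 994 in WT and at 1375, 1206 and 1074 in POLDIP2 KO. Its lines did not overlap, and its log2 fold change was 0.41 (95% interval 0.08 to 0.73). With 1 library left out at a time it was 0.32 to 0.49, and the interval then included 0 in 3 of the 6 fits. CTSB, which acts both inside peptides and at their ends, was at 11846, 11998 and 10469 in WT and at 14118, 12092 and 11933 in POLDIP2 KO. Its WT replicate 2 lay above POLDIP2 KO replicate 3, so the lines overlapped, and the log2 fold change was 0.15 (-0.12 to 0.42).

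CTSK, the collagen-degrading cathepsin of osteoclasts, lies next to CTSS on chromosome 1 (chr1:150794880-150809577). It had 0, 0 and 4 reads in WT and 6, 6 and 0 reads in POLDIP2 KO, and its mean of 2.74 was under the filter, so it was not fitted. The lines overlapped, and the 3 libraries with reads belonged to both lines. CTSF, whose product has a cystatin-like extension, was at 1015, 1113 and 658 in WT and at 1179, 520 and 491 in POLDIP2 KO. The knockout line held both the highest and the lowest of these values, and the log2 fold change was -0.43 (-1.31 to 0.44).

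The cysteine proteases that act on the ends of peptides varied more between replicates than between lines. CTSH, an aminopeptidase, was at 23173, 12537 and 7139 in WT and at 19536, 5973 and 7497 in POLDIP2 KO, a span of 3.88-fold. Replicate 1 was the highest of its line in both lines, by 1.29 in WT and 1.55 in POLDIP2 KO over the mean of replicates 2 and 3 on the log2 scale, and the log2 fold change between the lines was -0.42 (-1.71 to 0.88). CTSC, the dipeptidyl peptidase that activates granule serine proteases in leukocytes, was at 3790, 4183 and 5672 in WT and at 3010, 5034 and 4402 in POLDIP2 KO. Here replicate 1 was the lowest of its line in both lines, and the log2 fold change was -0.14 (-0.69 to 0.40). CTSZ, a carboxypeptidase, was at 2486, 2001 and 2017 in WT and at 2825, 1998 and 2106 in POLDIP2 KO, with a log2 fold change of 0.08 (-0.31 to 0.47).

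The members outside the cysteine protease class had overlapping lines. CTSD was at 53594, 93213 and 57606 in WT and at 78498, 93334 and 92182 in POLDIP2 KO. WT replicate 2 reached the level of the knockout line while WT replicates 1 and 3 lay below all POLDIP2 KO libraries. The log2 fold change was 0.41 (-0.14 to 0.96). Under the replicate block, which assumes that equal numbers are pairs, the interval was 0.05 to 0.77. With 1 library left out at a time, without the block, the log2 fold change was 0.26 to 0.66. The interval then included 0 in 5 of the 6 fits. The annotation holds a read-through gene over CTSD, ENSG00000250644 (chr11:1734821-1763954), which shared 1139 of the 5977 CTSD words of 31 bases. It carried 238 to 925 reads per library, 0.431% to 1.13% of the CTSD reads. CTSA was at 7470, 7407 and 6389 in WT and at 8504, 7419 and 7278 in POLDIP2 KO, with a log2 fold change of 0.13 (-0.14 to 0.39).

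**Figure D2:**
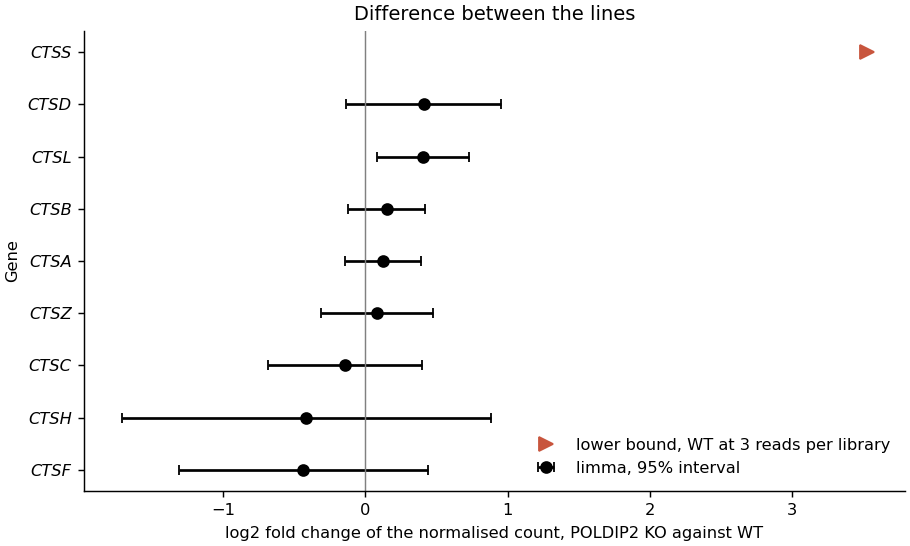
Log2 fold change of the normalised count, POLDIP2 KO against WT (x axis), for 9 cathepsin genes (y axis), as the limma estimate with its 95% interval (black) or, for CTSS, as the knockout mean against WT at 3 reads per library (red arrow head). The key calls the CTSS value a lower bound, but it leaves out the counting error of the knockout libraries. This value of 3.53 is another measure than the limma intervals. CTSS was chosen for its values in these libraries, so nothing is read from its place. Of the 8 other intervals, 7 include 0.

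Of the 10 genes, 9 passed the filter and 1, CTSS, met both thresholds of the comparison (limma, adjusted p under 0.05 and fold change over 1.5), where 0.17% of the 14684 genes tested did. CTSS was among the genes chosen with this contrast known, so nothing is read from that count. Of the 8 other genes fitted, 5 had a positive and 3 a negative log2 fold change, with a median of 0.10, where the median of all genes tested was 0.00. In 2 of the 10, CTSS and CTSL, all POLDIP2 KO libraries lay above all WT libraries, and CTSS was chosen for its values here. Of all genes tested, 5.46% had every POLDIP2 KO library above every WT library, and nothing is read from the 2.

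Whether CTSS met the thresholds depended on how the values were tested. Since the gene was chosen for these same values and passed the filter only through the POLDIP2 KO libraries, the calls below describe the settings and are no evidence on the gene. It met them with a pseudocount of 5, without a filter, after quantile or TMM normalisation, without the trend and with DESeq2 on the recovered reads. It did not with a pseudocount of 0.5, with the replicate block, with edgeR on the recovered reads, or when any 1 of the 6 libraries was left out. Leaving out a WT library could not move its log2 fold change, since all WT values were 0. Without 1 POLDIP2 KO library it was 4.94 to 5.25. The reads themselves, 0 in each WT library and 31 to 36 in each POLDIP2 KO library, are the same under all of these.

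The labels number the replicates of each line, and libraries of equal number were compared as pairs, although the labels do not state a pairing. CTSS was higher in POLDIP2 KO in all 3 pairs, by 5.50, 4.88 and 4.99 on the log2(normalised count + 1) scale. CTSL was higher by 0.72, 0.39 and 0.11, so its difference was smallest in replicate 3. CTSA, CTSB and CTSD were higher in all 3 pairs too, yet in replicate 2 only by 0.00, 0.01 and 0.00. In all, 5 of the 10 genes were higher in all 3 pairs, a property of 17.0% of all genes tested. CTSS is among the 5 through the way it was chosen, and CTSK was not among the genes tested. Nothing is therefore read from that count. CTSC, CTSF and CTSH were higher in 1 pair each, and in replicate 2 CTSF and CTSH were lower by the widest margins, at -1.10 and -1.07.

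**Figure D3:**
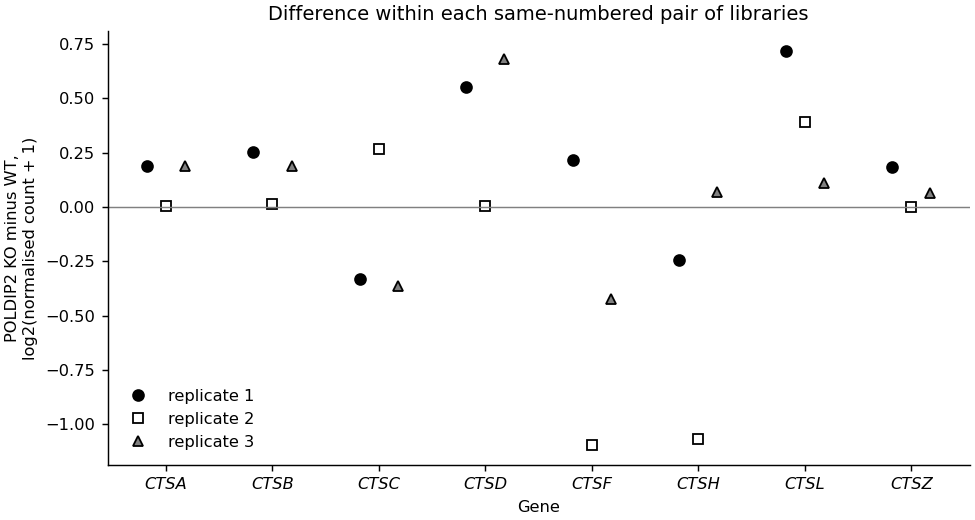
Difference POLDIP2 KO minus WT in log2(normalised count + 1) (y axis) within each same-numbered pair of libraries, for the 8 cathepsin genes with a fitted change other than CTSS (x axis), with replicates 1 to 3 as filled circle, open square and grey triangle. CTSL is above 0 in all 3 pairs, and CTSF and CTSH reach -1.10 and -1.07 in replicate 2.

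Levels of different genes were compared per kilobase of their merged exons, as normalised counts per kilobase. CTSD was the highest in every library, at 9407 to 16383, and made up 68.5% to 84.2% of the summed level of the 10 genes. Below it came CTSB at 994 to 1341, CTSH at 434 to 1684, CTSA at 740 to 985, CTSF at 115 to 277, CTSC at 121 to 228, CTSL at 137 to 225 and CTSZ at 103 to 146. CTSS and CTSK closed the order, CTSS at 4.14 to 6.43 in POLDIP2 KO and CTSK at up to 0.874. Neighbours in this order whose ranges over the 6 libraries did not overlap were CTSD and CTSB, CTSA and CTSF, and CTSZ and CTSS, while the ranges of all other neighbours overlapped.

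The order in the middle depended on the length used. The merged exons of CTSC and CTSZ span 24849 and 19384 bases, against 1870 and 1502 bases in their MANE Select transcripts. Per kilobase of the MANE Select transcript, a length chosen after seeing the data, the order was CTSD, CTSH, CTSA, CTSB, CTSC, CTSZ, CTSL, CTSF, CTSS and CTSK, with CTSD at 53.5% to 75.1% of the sum. CTSD at the top and CTSS and CTSK at the bottom held under both lengths. In the POLDIP2 KO line CTSS therefore made up at most 0.0351% of the summed cathepsin level by merged exons and 0.0186% by MANE Select transcripts.

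**Figure D4:**
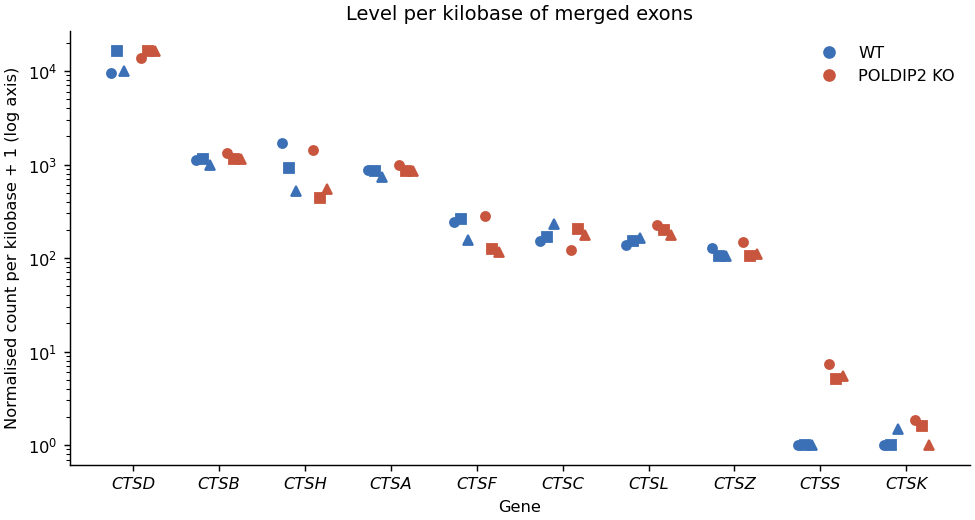
Normalised count per kilobase of merged exons, plus 1, on a log axis (y axis) for the 10 cathepsin genes in order of their mean level (x axis), in WT (blue) and POLDIP2 KO (red), with replicates 1 to 3 as circle, square and triangle. CTSD lies at 9407 to 16383, and CTSS, at 0 in WT and 4.14 to 6.43 in POLDIP2 KO, lies below the 8 genes to its left.

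Other members of the cathepsin family were read for comparison. CTSO, a cysteine protease, was at 621, 202 and 339 in WT and was listed at 0 in POLDIP2 KO replicate 1 but at 536 and 539 in replicates 2 and 3. It is 1 of the 9 genes with a single zero among high counts, so its log2 fold change of -2.40 (-7.88 to 3.08) rests on that library. CTSV, the closest relative of CTSL, had 0, 16 and 17 reads in WT and 0 in every POLDIP2 KO library. CTSW, CTSE and CTSG, cathepsins of lymphocytes, stomach and granulocytes, had at most 3 reads in any library.

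CTSS was also set beside the genes that flank it. The genes on its lower-coordinate side are RNU6-1042P, which was not tested, and HORMAD1, a meiotic gene with 0 reads in every library. On the other side lie ENSG00000236713, a processed pseudogene with 0 reads, and CTSK. The nearest expressed protein-coding genes on each side did not differ between the lines beyond their spread, with GOLPH3L at a log2 fold change of -0.01 (-0.43 to 0.41) and ARNT at 0.04 (-0.23 to 0.30), adjusted p = 1.00 for both (limma).

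The 5 genes whose values over the 6 libraries were most like those of CTSS were named by their Pearson correlation on log2(normalised count + 1), a description over 6 libraries of 2 lines. They were ENSG00000112096, which the study names SOD2 and which encodes the mitochondrial superoxide dismutase (r = 0.995), ATRAID (0.994), SARDH, a mitochondrial sarcosine dehydrogenase (0.994), NFKBIZ, a nuclear regulator of NF-kB (0.994) and ZNF618 (0.993). ENSG00000112096 was at 4619, 5447 and 5949 in WT and at 29268, 23644 and 22446 in POLDIP2 KO. SARDH was at 20.8, 15.1 and 19.8 in WT and at 346, 186 and 288 in POLDIP2 KO. In both genes and in NFKBIZ, as in CTSS, POLDIP2 KO replicate 1 was the highest library. ATRAID was highest in POLDIP2 KO replicate 2 (2700 against 2678 in replicate 1) and ZNF618 in POLDIP2 KO replicate 3 (1116 against 1037 in replicate 1). The 5 genes were picked for following CTSS, so nothing is read from a shared order. With all WT values of CTSS at 0, the correlation follows the difference between the lines and the order of 3 knockout libraries only.

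Genes around the cathepsins were then counted in 9 lists, which hold 145 genes, 113 of them past the filter. None of the 113 met the thresholds (0 with limma, 0 with edgeR, 0 with DESeq2), 4 of them (3.54%) had an unadjusted p under 0.05, where 6.48% of all genes tested did, and the smallest adjusted p was 0.594. The median log2 fold change of the 113 was 0.07, with 70 above 0, and in 7 of them (6.19%) every POLDIP2 KO library lay above every WT library. The log2 fold changes and adjusted p values of single genes in the next paragraphs come from the same limma fit, and the genes given with a log2 fold change are among the 3 with the smallest p in their list, except where the text says that they were named for another reason.

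**Figure D5:**
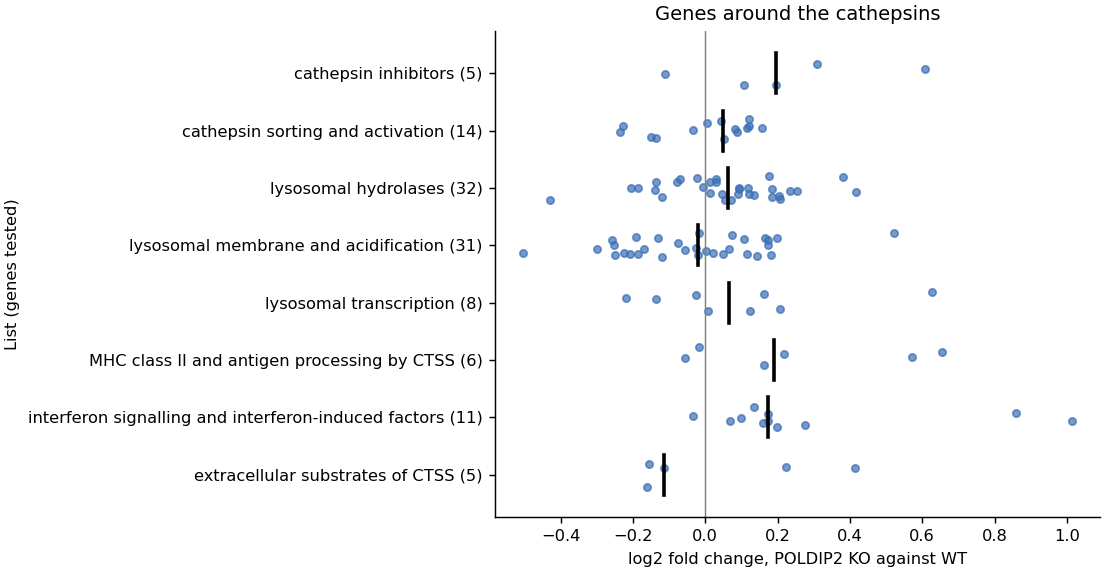
Log2 fold change, POLDIP2 KO against WT (x axis), of each gene tested in 8 lists around the cathepsins (y axis, with the number of genes tested), where each point is 1 gene, spread vertically for view, and the black bar is the median of the list. The medians lie between -0.11 and 0.20, and none of the 112 genes met the thresholds.

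Of the 15 genes listed as endogenous inhibitors of cathepsins, 5 were tested and 0 met the thresholds. SERPINB1 was at 1542, 1988 and 1584 in WT and at 2089, 1857 and 2384 in POLDIP2 KO, with a log2 fold change of 0.31 (-0.04 to 0.66, adjusted p = 0.853). LXN, in the list but an inhibitor of metallocarboxypeptidases rather than of cathepsins, was at 0.61 (-0.20 to 1.41). CST3, cystatin C, a secreted inhibitor of cysteine cathepsins that RPE cells make in quantity, was at 0.20 (-0.22 to 0.61). CST3 held 2687 to 4136 normalised counts over the 6 libraries.

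Sorting to the lysosome and activation were covered by 14 genes, all tested, with 0 past the thresholds and a median of 0.05. GGA2, an adaptor that takes receptors out of the Golgi, was lower in every POLDIP2 KO library, at 6207, 6768 and 6254 in WT and 5207, 5439 and 5785 in POLDIP2 KO, but its log2 fold change of -0.23 (-0.45 to 0.00) did not pass (adjusted p = 0.763). M6PR, the small mannose 6-phosphate receptor, was at -0.24 (-0.59 to 0.12).

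The lysosome itself was represented by 33 hydrolase genes, 32 of them tested, and by 31 genes of its membrane and proton pump, all tested. Of the hydrolases, 22 had a positive and 10 a negative log2 fold change, with a median of 0.06 and 0 past the thresholds. GALC, the galactocerebrosidase, was at 0.42 (0.01 to 0.83, adjusted p = 0.759) and GALNS, a sulfatase, at 0.38 (-0.05 to 0.82). Of the membrane genes, 14 were positive and 17 negative, with a median of -0.02. TPCN1, a lysosomal cation channel, was at 6071, 4812 and 4687 in WT and at 8261, 5822 and 8426 in POLDIP2 KO, a log2 fold change of 0.52 (0.10 to 0.95, adjusted p = 0.594), ATP6V0A1, a subunit of the proton pump, was at -0.30 (-0.59 to -0.01), and ATP6V0E1, another subunit, at 0.17 (-0.04 to 0.39).

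The factors that drive lysosomal genes and their regulators numbered 8, all tested, with 0 past the thresholds. TFEB, the main activator, was at 196, 235 and 235 in WT and at 220, 287 and 263 in POLDIP2 KO, a log2 fold change of 0.21 (-0.23 to 0.64). FNIP2 and FNIP1, partners of folliculin in controlling these factors, were at -0.22 (-0.53 to 0.10) and -0.14 (-0.38 to 0.11). Since such factors bind the E-box CACGTG, promoters were searched for those letters, which read the same on both strands, and for the longer TCACGTGA, which contains them. RefSeq promoters (GRCh38.p14, a stretch around the transcription start) were at hand for 7 of the 10 genes and did not include CTSS, CTSB and CTSK. CACGTG occurred in 3 of the 7, and in 7.26% of 35116 promoters, and TCACGTGA in 1 of the 7 (CTSA), and in 0.98% of all promoters. Counted by gene, since some genes have several promoters, CACGTG occurred in 14 of the 47 genes of the hydrolase and membrane lists with a promoter (29.8%) and in 8.77% of all 27305 genes, and TCACGTGA in 7 of the 47 (14.9%) and in 1.18% of all genes. The windows of 60 bases around the matches in CTSA and CTSD are shown, with CACGTG in capitals, from chr20:45891283-45891342 on the plus strand and chr11:1763942-1764001 on the minus strand.
CTSA: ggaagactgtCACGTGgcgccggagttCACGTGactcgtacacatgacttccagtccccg
CTSD: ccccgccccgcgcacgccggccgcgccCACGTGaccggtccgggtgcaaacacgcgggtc
The matches begin 42 and 25 bases before the start of CTSA and 47 bases before that of CTSD. The remaining promoter with the letters was that of CTSF, with matches 123 and 51 bases before its start. The log2 fold changes of CTSA, CTSD and CTSF were 0.13, 0.41 and -0.43, and the 95% interval of each included 0.

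The MHC class II pathway, in which CTSS is best known, was read from 13 genes, 6 of them tested and 0 past the thresholds. CD74, named here because it encodes the invariant chain that CTSS cuts, was at 38.7, 37.1 and 37.6 in WT and at 50.4, 39.1 and 38.7 in POLDIP2 KO, with a log2 fold change of 0.16 (-0.53 to 0.86, adjusted p = 1.00). HLA-DRA, HLA-DRB1, HLA-DPB1, HLA-DQA1, HLA-DMA and HLA-DMB had 2 reads or fewer in every library. IFI30, a lysosomal thiol reductase of antigen processing, was at 163, 353 and 318 in WT and at 344, 419 and 421 in POLDIP2 KO, higher in all 3 pairs, with a log2 fold change of 0.57 (-0.15 to 1.29, adjusted p = 0.923). RFXAP, a subunit of the class II promoter complex, was at 0.22 (-0.29 to 0.72), and CIITA, the class II transactivator, was at 0.65 (-1.09 to 2.40) with POLDIP2 KO replicate 2 at 66.8 and the other 5 libraries at 8.94 to 22.1.

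CTSS is an interferon-inducible gene in many cells, and 16 genes of interferon signalling and its factors were listed, 11 of them tested with 0 past the thresholds. IRF1, a transcription factor induced by interferon gamma, was at 272, 619 and 467 in WT and at 486, 1142 and 849 in POLDIP2 KO. It was higher in all 3 pairs, the lines overlapped, and the log2 fold change was 0.86 (-0.07 to 1.79, adjusted p = 0.830). TYK2 and IFNAR1, a kinase and a receptor chain of type I interferon signalling, were at 0.20 (-0.04 to 0.44) and 0.17 (-0.05 to 0.40), each with all POLDIP2 KO libraries above all WT libraries. Of the 11 tested, 10 had a positive log2 fold change, with a median of 0.17. The share of positive changes among all genes tested was not counted. The list was written with results on many immune genes of these data known, so nothing is read from these signs. IFNG, IRF7 and IRF8 were listed at 0 in every library.

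Proteins outside the cell that CTSS can cleave were listed as 10 genes, 5 of them tested, with 0 past the thresholds and a median of -0.11. OCLN, a tight junction protein, was at -0.16 (-0.58 to 0.27). FN1, fibronectin, was at 78077, 21007 and 25817 in WT and at 95744, 30298 and 34562 in POLDIP2 KO, so that replicate 1 was the highest in both lines, with a log2 fold change of 0.41 (-1.01 to 1.84). F2RL1, a protease-activated receptor, was at 0.22 (-0.60 to 1.05).

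Because CTSS marks macrophages and microglia in the retina, 15 genes of those cells were read beside it. SPI1, AIF1, TYROBP, CD163 and CX3CR1 were at 0 reads in all 6 libraries, and PTPRC, which encodes CD45, had 0 reads in WT and 1, 4 and 7 reads in POLDIP2 KO. The summed level of the 15 genes was 1768 to 2288 in WT and 1904 to 2197 in POLDIP2 KO, most of it CD68, a lysosomal membrane protein, at 1680 to 2187 in WT and 1856 to 2129 in POLDIP2 KO. CSF1R was lower in every POLDIP2 KO library, at 48.2, 24.1 and 15.7 in WT and 4.92, 14.7 and 11.9 in POLDIP2 KO (log2 fold change -1.37, adjusted p = 0.819). ITGAM and LYZ were at -0.86 (-2.98 to 1.25) and -0.36 (-1.35 to 0.62). Of the 4 genes of this list that were tested, 1 had a positive and 3 a negative log2 fold change. CD14, under the filter, was at 0, 3.01 and 2.09 in WT and at 3.69, 6.51 and 2.98 in POLDIP2 KO. It was higher in all 3 pairs, and its lines overlapped. FCER1G, MRC1, ITGB2 and LAPTM5, also under the filter, had overlapping lines. Of the 15 RPE markers, 10 were tested and 0 met the thresholds. LRAT, which makes the retinyl esters of the visual cycle, was at 106, 75.3 and 29.2 in WT and at 22.1, 24.4 and 28.8 in POLDIP2 KO, lower in every POLDIP2 KO library, with a log2 fold change of -1.27 (-2.46 to -0.08, adjusted p = 0.731). SERPINF1 and OTX2 were at -0.77 (-1.58 to 0.05) and -0.26 (-0.62 to 0.09). Of the 10 markers tested, 4 had a positive and 6 a negative log2 fold change, and the positive ones, named after their values were seen, were BEST1 at 0.78 (-1.15 to 2.71), TYRP1 at 0.56 (-2.01 to 3.14), KRT8 at 0.05 (-0.33 to 0.43) and MITF at 0.01 (-0.43 to 0.44).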

How the data were processed

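The 6 libraries are 3 biological replicates of WT ARPE-19 and 3 of the POLDIP2 KO line, all from day 3. The authors quantified reads with Salmon 1.8, imported them with tximport as counts per gene (GRCh38), and applied the size factors of DESeq2 1.34.0. The values they deposited are therefore a signal, the normalised count per gene, in 1 table without columns of the authors' own comparisons. The annotation release is not given in the sources used here. Each column was divided by the worth of 1 read, and 100% of values were whole within 0.001, which says little for WT replicate 2 and POLDIP2 KO replicate 3, where 1 read is worth about 1.

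The lines were compared with limma 3.58.1 (R 4.3.3, eBayes with trend) on log2(normalised count + 1) for the 14684 genes whose mean was 10 or more, with Benjamini-Hochberg adjustment. Fold changes on this scale understate those of low genes. Calls needed an adjusted p under 0.05 and a fold change over 1.5. With 3 libraries against 3, an exact permutation test of 1 gene cannot go below 0.1. Nothing says how separate the cultures were, so p values measure the spread between these libraries. Alternatives were a pseudocount of 0.5 or 5, a filter at a mean of 50 or none, quantile and TMM normalisation, no trend, a replicate block, edgeR 4.0.16 and DESeq2 1.42.0 on recovered reads, leaving out each library, and other lengths. Scripts were tested on simulated data.

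Centred on their line, libraries with the same replicate number correlated at 0.315, 0.137 and 0.129 over genes, and other pairs at -0.259 to 0.147. WT replicate 3 with POLDIP2 KO replicate 2 gave the 0.147, so only the replicate 1 pair stood out. The labels give the numbers but do not state a pairing, and treating equal numbers as pairs is an assumption. Symbols came from a table of gene names that matched 29046 of the 37902 genes, and lengths and positions from GENCODE release 44. The genes named were the 10 cathepsins, the 3 genes with the smallest p in each list (some of them counted in their list but not reported here), the 5 genes most correlated with CTSS, the 2 genes on each side of CTSS and POLDIP2, and others were named after their values were seen. The 10 genes and the lists were chosen with earlier results of these data known.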

Additional observations from a re-analysis of the deposited data

How the results depend on the processing

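The log2 fold change of CTSS depended on how 0 reads were handled, at 6.10 with a pseudocount of 0.5, 2.96 with a pseudocount of 5, 8.12 with edgeR and 7.55 with DESeq2 on the recovered reads. It ranged from 4.94 to 5.25 when 1 POLDIP2 KO library was left out, and leaving out a WT library could not move it. The number of cathepsins past the thresholds, 1 as reported, was 0 with a pseudocount of 0.5, 0 with a mean of at least 50, which removes CTSS, 0 with the replicate block, 0 with edgeR and 0 in each of the 6 fits that left out 1 library. Of all genes, 25 met the thresholds, 16 with a mean of at least 50, 248 with DESeq2, 30 with the replicate block, and 0 to 10 when 1 library was left out, with 10 without WT replicate 1 or without POLDIP2 KO replicate 1 and 0 without any other. The counts of 16 and of 0 to 10 come with fewer genes or libraries tested. With the same genes and libraries, 17 met the thresholds with edgeR, 19 without the trend and 23 with a pseudocount of 0.5. For these and for DESeq2 the cause was not tested. For the 8 other cathepsins, 128 of 128 alternative values moved by less than 1 SD between replicates, from which no stability is read. The block and the missing trend leave the coefficient unchanged, and a pseudocount barely moves genes at these counts. Leaving out 1 of 3 libraries can move the mean of a line by only a part of its SD. Such fits still gave -0.93 to 0.02 for CTSH and -0.84 to -0.21 for CTSF. Of the 128 values, 124 kept their sign, the exceptions being CTSC at 0.03 without WT replicate 3 and 0.07 without POLDIP2 KO replicate 1, CTSH at 0.02 without WT replicate 1 and CTSZ at -0.07 without POLDIP2 KO replicate 1. The replicate block changed no other call among the cathepsins or the pathway lists, where 0 genes met the thresholds under every alternative. At 31 to 36 reads per library, the level of CTSS in the knockout line is known only within its counting interval, and a WT level under 3 reads per library was not detectable.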
